A study of Mus musculus with 12 samples.

Results

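Mouse embryonic stem cells in which Tet1 or Tet2 had been depleted were compared with each other. TET proteins are dioxygenases that oxidize 5-methylcytosine in DNA to 5-hydroxymethylcytosine and further products, a route by which methyl marks can be removed. Tet1 and Tet2 are the TET genes mainly used in embryonic stem cells, whereas Tet3 is best known from the egg and the early zygote. The cells were of the line V6.5, cultured in serum with LIF, a cytokine that keeps mouse embryonic stem cells undifferentiated. The 4 libraries of the Tet1kd group came from cells with a stable hairpin RNA vector against Tet1, and the 4 libraries of the Tet2kd group from cells with the same kind of vector against Tet2. Both were selected with puromycin on resistant feeder fibroblasts and picked as clones, so that clone and knockdown cannot be told apart. The sources used here do not say how many clones stand behind the 4 libraries of a group, and p-values measure only the spread between these libraries. The 4 libraries of untreated parental V6.5 cells are given beside them as a level and did not enter the test.

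Poly(A)-selected RNA was sequenced, and levels are normalized read counts, that is, reads divided by a size factor of the library. Of 36521 gene features listed, 14693 had a mean of at least 10 in both deposited comparisons with parental cells, which is how the genes were chosen. Reads of each library could be recovered for 14208 of these, which were tested. The other 485, mostly of very high level, have means only. The 12 libraries held from 14.4 to 39.7 M reads, in part estimated from the recovered share. The size factors of the recovered libraries put a pair of deeper libraries (a and b) and a pair of shallower ones (c and d) in each group, a division that no label names, and values are listed in the order a, b, c, d. The defining embryonic stem cell markers were high in both knockdowns: the summed level of 8 markers was 117012 in Tet1kd, 108327 in Tet2kd and 105071 in parental cells. Pou5f1 and Sox2, core factors of pluripotency, had means of 15262 and 12317 in Tet1kd and of 12871 and 12282 in Tet2kd cells.

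Each knockdown was low in its own target. Tet1 (ENSMUSG00000047146) was at 7427, 7540, 6257 and 6215 in the Tet1kd libraries, against a mean of 31740 in Tet2kd and of 27235 in parental cells, so that Tet1kd cells had 21.6% of the Tet2kd level. Tet2 (ENSMUSG00000040943) was at 4431, 4625, 4176 and 4155 in the Tet2kd libraries, against a mean of 10054 in Tet1kd and of 8535 in parental cells, so that Tet2kd cells had 43.2% of the Tet1kd level. Neither gene could be tested between the knockdowns, because the reads of the other knockdown group were not recovered. For Tet2 in Tet1kd cells the authors' deposited table gave a log2 ratio to parental of 0.24 (adjusted p = 0.0186 by DESeq). Tet3 (ENSMUSG00000034832, chromosome 6) was at 376, 336, 357 and 393 in the Tet1kd and at 208, 216, 193 and 251 in the Tet2kd libraries. The groups did not overlap, and the log2 difference of Tet3, higher in Tet1kd, was 0.76 (SE 0.10, adjusted p = 7.83e-05 by limma). The parental libraries, at 196 to 221, lay with the Tet2kd libraries.

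The knockdowns differed widely. Genes that were far higher in Tet1kd cells included the epithelial membrane gene Prom2, the immediate-early factors Fos and Egr2 and the small GTPase gene Rab25. Far lower in Tet1kd cells were Brachyury (T), the mesoderm factor, Pax6, a factor of eye and neural development, and the growth factor carrier gene Fgfbp1. In all, 6965 of 14208 genes passed the test at an adjusted p under 0.05 (49.0%), with 3541 at a higher level in Tet1kd (24.9%) and 3424 at a lower one (24.1%). For 6341 of the tested genes (44.6%) the 4 Tet1kd and 4 Tet2kd libraries did not overlap. Differences of 2-fold or more were found for 605 higher and 849 lower genes, together 10.2% of those tested. At least 4-fold were 63 higher and 189 lower genes. The median difference over all genes tested was -0.0049 and the median size of a difference 0.30, both on the log2 scale. With differences in 49.0% of all genes, a gene list is of note only where its members go mainly one way. Each list below is thus given by its counts in both directions and its median. The shares called were near 49.0% for base excision and cofactor (52.9%), interferon response (52.2%), primitive endoderm (50%) and cholesterol synthesis genes (43.5%).

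**Figure D1:**
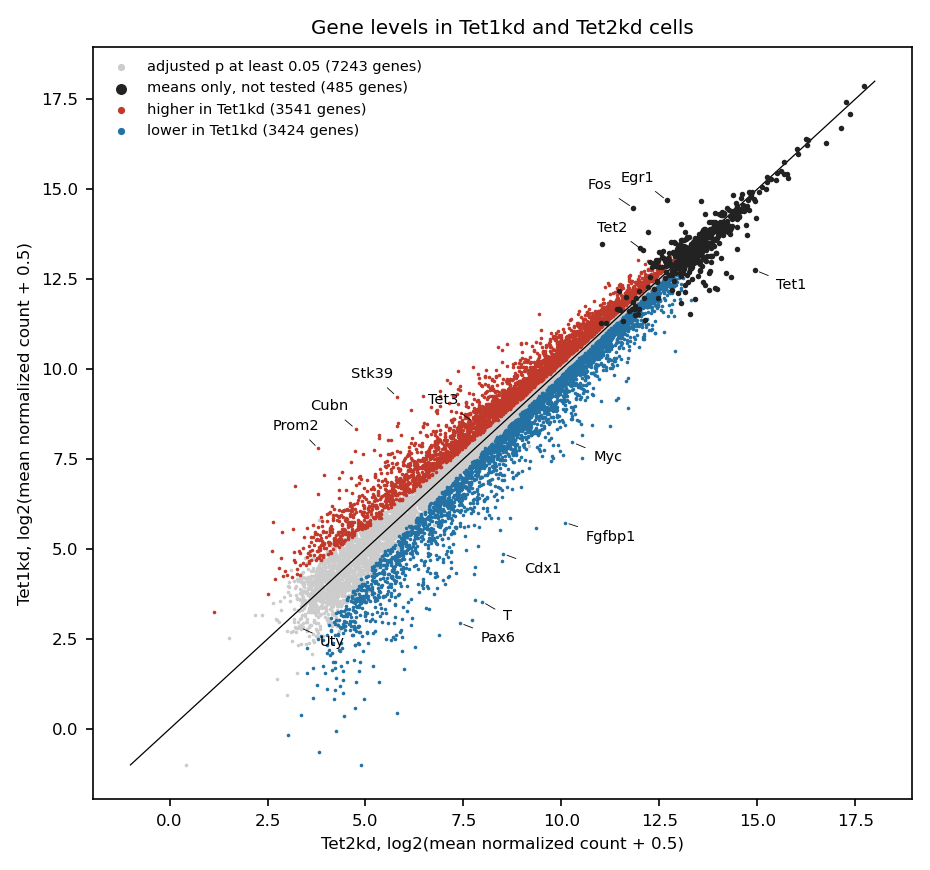
Mean level of each gene in Tet2kd (x axis) and Tet1kd cells (y axis) as log2(mean normalized count + 0.5), 1 point per gene, with the line of equal levels. The 3541 genes higher in Tet1kd are red, the 3424 lower genes blue, and the 485 genes with means only black; Tet1 lies below the line, and Tet2, Fos and Egr1 lie above it.

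A stretch of chromosome 6 was shifted, found after the values were seen as the run in which the median of 15 neighbouring genes stayed beyond 0.4 on the log2 scale. From Tcaf1 to Kbtbd8, 241 genes were tested, of which 185 were lower (76.8%) and 9 higher in Tet1kd cells, and the median difference was -0.88, a level of 54.5% of that in Tet2kd cells. On the same scale the median in Tet1kd cells was -0.89 from the parental level and that in Tet2kd cells 0.04. Over the other 400 genes of chromosome 6 the median was 0.01, with 108 higher and 89 lower genes. The stretch holds Tet3, which was higher in Tet1kd cells, and Nod1, Ezh2, Hk2, Kdm3a, Tcf7l1, Pdia4, Mthfd2 and Tra2a, which were lower. The part of the shift of the stretch in the values of these genes was not tested. Outside the stretch 6771 genes differed, 3532 higher and 3239 lower. X-linked genes leaned the same way, with 90 higher and 170 lower of 592 and a median of -0.13.

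**Figure D2:**
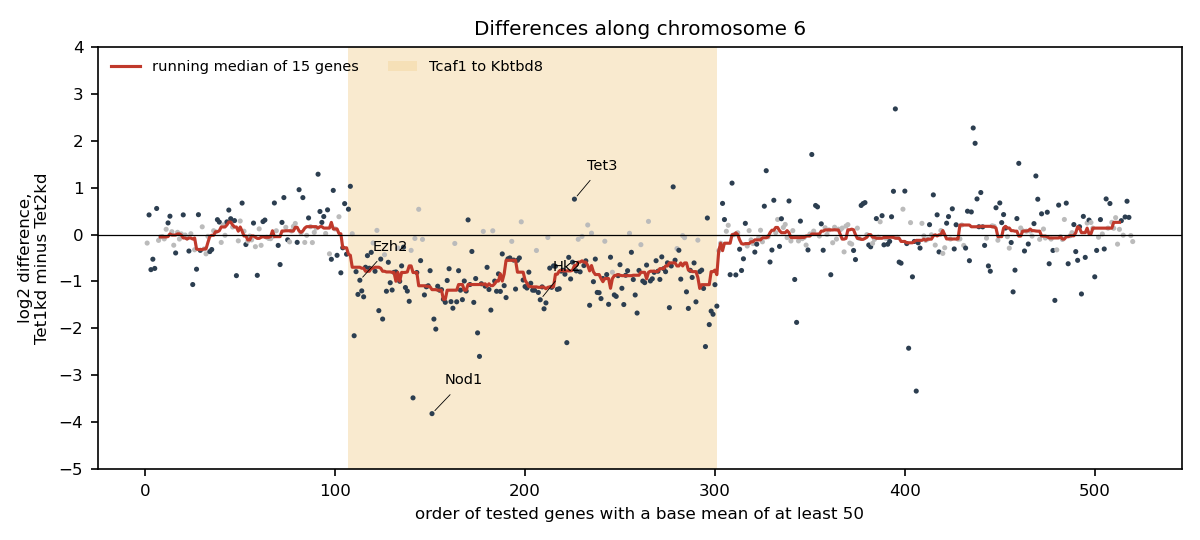
Log2 difference (Tet1kd minus Tet2kd, y axis) of each tested gene of chromosome 6 with a base mean of at least 50, in chromosome order (x axis); dark points passed the test, grey points did not, and the line is a running median of 15 genes. Within the shaded stretch from Tcaf1 to Kbtbd8 the running median stays below 0, and Tet3 lies above 0.

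Y-linked genes were nearly lost from both knockdowns. Uty was at 503 in parental, 6.58 in Tet1kd and 9.44 in Tet2kd cells, Eif2s3y at 634, 23.3 and 17.4, and Ddx3y at 599, 24.5 and 40.4, as group means. Between the knockdowns the differences were -0.30 (SE 0.54, adjusted p = 0.678) for Uty, 0.42 (SE 0.45, adjusted p = 0.464) for Eif2s3y and -0.71 (SE 0.29, adjusted p = 0.0619) for Ddx3y, and none of the 3 passed the limma test; at an unadjusted p under 0.05 only Ddx3y did. Ddx3y shares much sequence with the X-linked Ddx3x, which makes its remaining reads uncertain.

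The genes with the largest differences were taken from those called at an adjusted p under 0.05. They also needed a mean of at least 100 in the higher group and no overlap of libraries. The separation of the groups and an adjusted p under 0.05 were thus conditions of the choice and not findings. Prom2, a pentaspan membrane protein of epithelial protrusions, was at 169, 227, 203 and 286 in the Tet1kd and at 12.3, 13.8, 13.3 and 14.03 in the Tet2kd libraries, a difference of 3.98 (SE 0.19, adjusted p = 1.75e-08). Cubn, an endocytic receptor, was at 351, 323, 332 and 287 against 25.3, 31.2, 22.2 and 26.5. Pdyn, the opioid peptide precursor, was at 91.03, 115, 89.96 and 137 against 9.41, 7.34, 7.41 and 10.9. The kinase gene Stk39, a regulator of ion transport, was 10.9-fold higher in Tet1kd cells, at a mean of 603 against 55.2. The GDNF family receptor gene Gfra2 was 8.81-fold higher, the homeodomain-only gene Hopx 8.01-fold, Zbtb7c 7.16-fold, Fhdc1 7.10-fold, the secreted matrix protein gene Tgfbi 6.94-fold, the sperm channel gene Catsperz 6.79-fold, Ttc9 6.65-fold and the amino acid transporter gene Slc38a5 6.60-fold. Their adjusted p values lay between 1.79e-09 (Stk39) and 3.74e-06 (Ttc9).

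Among the genes lower in Tet1kd cells, Fgfbp1, whose product releases FGF from the matrix, was at 39.7, 63.4, 43.1 and 64.8 in the Tet1kd and at 1037, 1167, 1116 and 1041 in the Tet2kd libraries, a difference of -4.39 (SE 0.16, adjusted p = 1.85e-09). Pax6 was at 6.07, 11.9, 2.53 and 8.28 against 159, 187, 159 and 173. Cdx1, a caudal homeobox gene, was at 38.6, 19.02, 40.5 and 16.6 against 334, 325, 406 and 394. Decorin (Dcn), a matrix proteoglycan made by fibroblasts, was at 5.52, 14.3, 0 and 11.04 against 238, 217, 182 and 204, and was 27.3-fold lower by the means. Its fitted log2 difference of -5.46 (SE 0.81, adjusted p = 0.00014) was -4.38 without Tet1kd library c, in which it had 0 reads, and -4.25 with a pseudocount of 5. In RNA of whole cultures, fewer cells of a type and less RNA per cell cannot be told apart. The interferon-induced GTPase gene Gbp2 was 19.09-fold lower in Tet1kd cells, the GABA-synthesis gene Gad1 14.5-fold, Nod1, a sensor of bacterial wall fragments, 13.7-fold, the matrix gene Prelp 9.96-fold and E330020D12Rik 8.21-fold. Nod1 lies in the shifted stretch of chromosome 6.

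**Figure D3:**
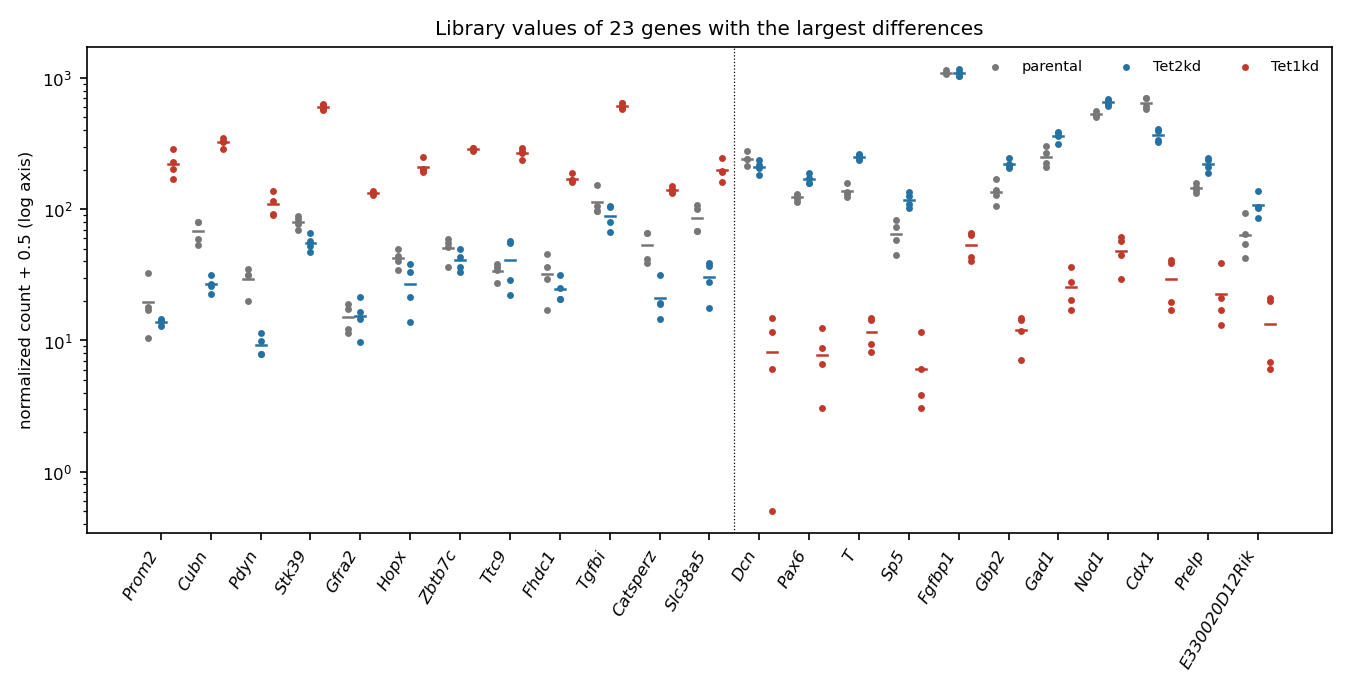
Normalized count + 0.5 (log axis) of 23 genes with the largest differences (12 higher and 11 lower in Tet1kd, left and right of the dotted line) in each of the 4 parental, 4 Tet2kd and 4 Tet1kd libraries; points are libraries and bars are means. The genes were chosen for an adjusted p under 0.05 and no overlap between Tet1kd and Tet2kd libraries. Parental libraries lie nearer to the Tet2kd than to the Tet1kd libraries for T, Fgfbp1 and Stk39.

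Both deposited comparisons used the same parental libraries, so their values are set side by side only. For Cubn the authors' deposited table gave a log2 ratio to parental of 2.26 in Tet1kd and of -1.36 in Tet2kd cells (adjusted p = 2.85e-40 and 5.35e-05). For Pdyn these were 1.90 and -1.73 in the authors' deposited table, and for Slc38a5 1.21 and -1.51. T had -3.63 in Tet1kd and 0.87 in Tet2kd cells in the authors' deposited table (adjusted p = 4.79e-39 and 1.27e-06), and Gbp2 had -3.56 and 0.70. Each of these 5 genes was thus on opposite sides of its parental level in the 2 knockdowns. Cdx1 was below parental in both, at -4.50 and -0.83 in the authors' deposited table (adjusted p = 2.77e-125 and 1.29e-10). Fgfbp1 had -4.38 and -0.01 there, with adjusted p values of 4.38e-227 and 1.

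**Figure D4:**
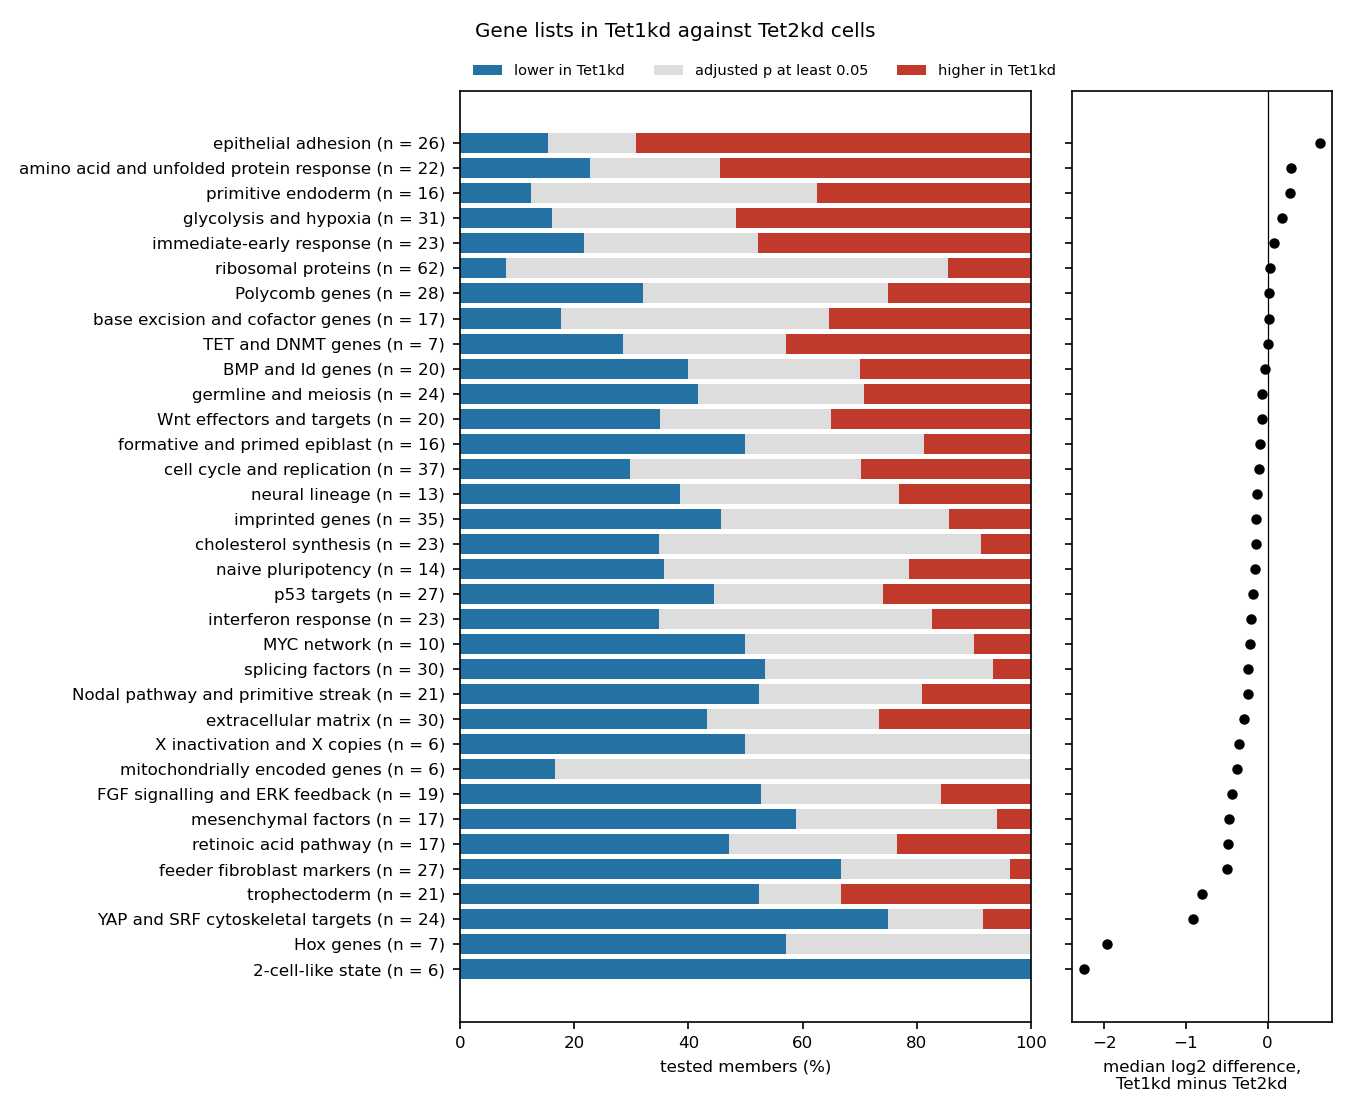
Share of tested members (x axis, left) of each gene list with at least 6 tested members that were lower (blue), higher (red) or not past the test (grey) in Tet1kd against Tet2kd cells, and the median log2 difference of the list (right). Epithelial adhesion has the highest median (0.64) and the 2-cell-like state the lowest (-2.24).

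Epithelial adhesion genes were mostly higher in Tet1kd cells. Embryonic stem cells are epithelial, with E-cadherin junctions, and lose such genes when they turn mesenchymal. Of 26 tested members 18 were higher and 4 lower, with a median of 0.64 against -0.0049 over all genes. Rab25, a GTPase of epithelial vesicle recycling, was at 791, 730, 793 and 833 in the Tet1kd and at 122, 145, 184 and 118 in the Tet2kd libraries. This was a 5.53-fold difference (2.48 on the log2 scale, SE 0.13, adjusted p = 3.03e-08), with parental cells at a mean of 130. The desmosome gene Dsp was at 2605, 2576, 2853 and 2544 against 1160, 1088, 1180 and 1319. The tight junction genes Ocln (0.96) and Cldn7 (0.98), the adhesion gene Epcam (0.65), the epithelial splicing factor gene Esrp1 (0.70) and the epithelial transcription factor gene Grhl2 (0.62) were also higher, as log2 differences. Cdh1, which encodes E-cadherin itself, had means of 15881 and 16335 and was not tested. The lower members included the keratin genes Krt8 (-1.15), Krt18 (-1.13) and Krt19 (-0.76). Keratins have processed copies elsewhere in the genome, so their counts are uncertain.

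Cytoskeletal targets of YAP and SRF went the other way. SRF is a transcription factor that, with its actin-regulated partner MRTF, drives genes of contractile filaments, and YAP responds to cell shape and tension. Of 24 tested members 18 were lower and 2 higher in Tet1kd cells (median -0.91). Smooth muscle actin, Acta2, was at 231, 321, 277 and 324 in the Tet1kd and at 1547, 1475, 1405 and 1497 in the Tet2kd libraries, and parental cells had a mean of 948. The difference was -2.37 (SE 0.10, adjusted p = 7.67e-09). The tropomyosin gene Tpm1 was at 1519, 1651, 1474 and 1567 against 4126, 3941, 4120 and 3953. Tagln (-2.04), Myl9 (-2.25), Cnn1 (-2.14), Cnn2 (-1.01) and Vcl (-0.69), which encode actin-binding and contractile proteins, were lower too. Among genes with means only, Actb had 79602 in Tet1kd against 111312 in Tet2kd cells and the filamin gene Flna 10354 against 22724. Srf itself, at 3566 ± 320 and 3745 ± 317 (SD, n = 4 each), differed by -0.07 (SE 0.08, adjusted p = 0.459). Actg1 (1.10) and S100a10 (0.57) were higher. Actg1 is counted as a merged feature and is near-identical to Actb, so its reads are uncertain.

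The SRF motif, the CArG box, was searched on both strands in the 250 bases before each RefSeq gene start (build GRCm38.p6), since members that bind SRF are known to carry it. It was found for 5 of the 23 cytoskeletal genes with such a window (Actg1, Cnn2, Myl9, Srf and Vcl), a list chosen as YAP and SRF targets. It was found for 3 of 19 immediate-early genes (Egr2, Srf and Zfp36) and for 2 of 14 Wnt genes (Lef1 and Tcf7). In the Nodal and primitive streak list it was found for 0 of 11 genes. The share over all 27025 genes with a window was 1.62%. A match is a description of letters and no evidence of binding. The stretches of 3 genes lower in Tet1kd cells (Cnn2, Myl9 and Vcl) and of Egr2, which was higher, are shown because the same box stands before genes with opposite differences; all lie on the plus strand and the box is in capitals.
Cnn2, chr10:79988519-79988578: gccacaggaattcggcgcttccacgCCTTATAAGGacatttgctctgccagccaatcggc
Myl9, chr2:156775278-156775337: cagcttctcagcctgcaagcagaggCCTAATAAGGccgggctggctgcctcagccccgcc
Vcl, chr14:20929148-20929205: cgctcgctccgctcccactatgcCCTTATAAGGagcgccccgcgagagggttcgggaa
Egr2, chr10:67537469-67537528: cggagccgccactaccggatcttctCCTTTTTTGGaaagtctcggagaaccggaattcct
The box begins 56 bases before the start in Cnn2, 161 in Myl9, 227 in Vcl and 72 in Egr2.

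Immediate-early genes, which growth signals switch on within minutes, were partly far higher in Tet1kd cells. Of 23 tested members 11 were higher and 5 lower (median 0.07), and with the means of 3 untested members the median was 0.24. Egr2, a zinc finger factor, was at 979, 1025, 979 and 944 in the Tet1kd and at 159, 164, 191 and 140 in the Tet2kd libraries, a difference of 2.59 (SE 0.10, adjusted p = 2.51e-09). Egr3 (1.89), the AP-1 genes Junb (1.06) and Jun (0.72) and Zfp36 (0.79), a factor of mRNA decay, were higher as well. The AP-1 genes Fos and Fosb and the factor gene Egr1 had means only: Fos was at 22809 in Tet1kd and 3641 in Tet2kd cells, Fosb at 11385 and 2086, and Egr1 at 26368 and 6617. The recovered Tet2kd libraries of Fos lay between 3509 and 3758, and the parental mean was 2072. Members at the lower end were Fosl1, another AP-1 gene, at 46.3, 38.0, 29.1 and 20.7 against 221, 236, 252 and 231, and Myc, the growth regulator, at 247, 285, 237 and 228 against 1194, 1179, 1374 and 1228 (difference -2.32, SE 0.09, adjusted p = 2.66e-09). For both genes the parental means, 267 and 1523, were nearer to Tet2kd.

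**Figure D5:**
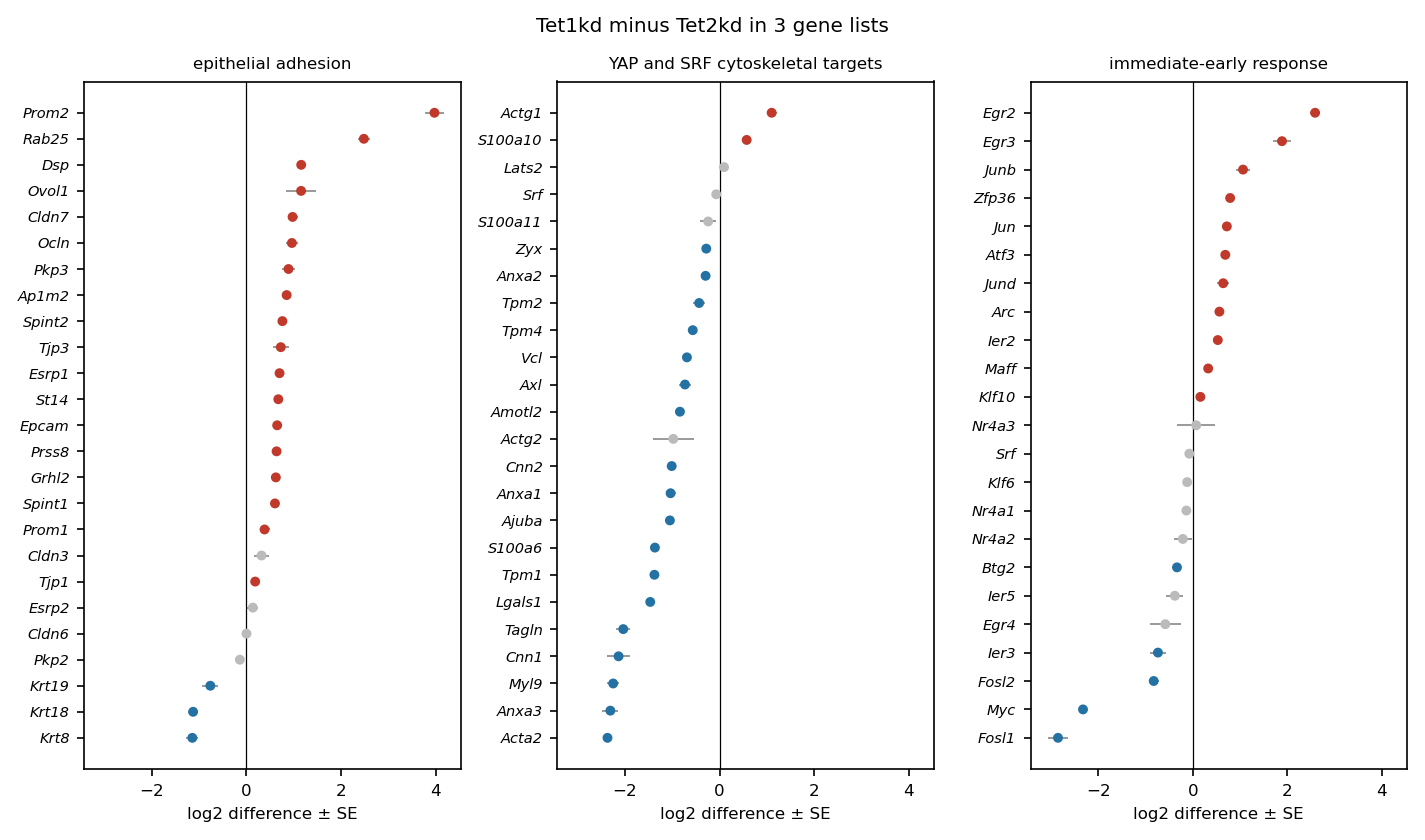
Log2 difference (Tet1kd minus Tet2kd, x axis) with its standard error for the tested members shown of 3 lists; red points were higher and blue points lower in Tet1kd, grey points did not pass the test. Epithelial genes lie mostly right of 0, cytoskeletal genes mostly left, and immediate-early genes on both sides, from Egr2 (2.59) to Fosl1 (-2.85).

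Genes of FGF signalling and ERK feedback, ligand and carrier genes among them, were more often lower than higher in Tet1kd cells. FGF4 acts on stem cells through the kinase ERK, whose output includes its own inhibitors. Of 19 tested members 10 were lower and 3 higher (median -0.43). With the means of 3 more members that were not tested the median was -0.23. The ERK phosphatase gene Dusp6 was at 1940, 1764, 1944 and 1709 in the Tet1kd and at 4274, 4537, 4256 and 4287 in the Tet2kd libraries. Its difference was -1.24 (SE 0.06, adjusted p = 9.98e-09). The feedback inhibitor gene Spry4 (-0.55) and the ETS factor gene Etv5 (-0.47) were lower too, and the FGF ligand gene Fgf15 (1.56) and Spry1 (0.39) were higher. Of the MYC network 5 of 10 were lower and 1 higher, with Mnt, a repressor partner of MAX, at -0.76 and Max at 0.24.

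Genes of the primitive streak, where mesoderm forms under Nodal and Wnt signals, held some of the largest differences. Of 21 tested members of the Nodal and streak list 11 were lower and 4 higher in Tet1kd cells (median -0.24), and among the 13 with a base mean of at least 100 the median was -0.09 with 4 lower. T was at 8.83, 14.3, 7.60 and 13.8 in the Tet1kd and at 236, 244, 262 and 260 in the Tet2kd libraries, with parental libraries between, at 124 to 159. The difference was -4.48 (SE 0.22, adjusted p = 2.04e-08). Sp5, a Wnt-induced zinc finger gene, was at 3.31, 5.55, 2.53 and 11.04 against 101.3, 108, 125 and 134. The streak factor Eomes was the opposite case, at 707, 770, 666 and 691 in the Tet1kd against 311, 322, 288 and 277 in the Tet2kd libraries (difference 1.24, SE 0.08, adjusted p = 1.89e-07). The ligand gene Nodal, at 2053 ± 290 and 2175 ± 125 (SD, n = 4 each), differed by -0.09 (SE 0.09, adjusted p = 0.427). Its inhibitor gene Lefty2 was at 2050, 2092, 1783 and 1850 against 4761, 4687, 4124 and 4176, and the parental mean was 1875. Smad3, a transducer of Nodal signals, was higher (0.99). The co-receptor gene Tdgf1 had means of 25901 in Tet1kd and 12205 in Tet2kd cells, with no test.

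In the Wnt list 7 of 20 tested members were higher and 7 lower (median -0.07, or 0.05 among the 15 with a base mean of at least 100). Axin2, a target and inhibitor of Wnt signalling, was at 349, 375, 407 and 363 in the Tet1kd and at 874, 999, 1020 and 1009 in the Tet2kd libraries. The repressor gene Tcf7l1 (-1.11), in the shifted stretch of chromosome 6, and Porcn (-0.80), which lipidates Wnt ligands, were also lower. The secreted Wnt antagonist gene Sfrp1 (1.08), the inhibitor gene Nkd2 (1.64) and the effector gene Lef1 (0.62) were higher. T and Sp5 each hold the core of the TCF motif (CTTTGAA or CTTTGAT, both strands searched) in the 250 bases before their start. The core was found for 2 of 11 streak genes with a window (T and Sp5) and for 2 of 14 Wnt genes (Dkk1 and Sp5), against 8.63% of all genes with a window. They are shown because their levels differed most; the core is in capitals, for T as its reverse complement, and both lie on the plus strand of GRCm38.p6.
T, chr17:8434173-8434219: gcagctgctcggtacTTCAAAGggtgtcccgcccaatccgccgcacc
Sp5, chr2:70474794-70474850: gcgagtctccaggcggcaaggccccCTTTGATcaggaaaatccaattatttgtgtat

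Of 20 tested BMP and Id genes 6 were higher and 8 lower (median -0.03, or 0.10 among the 14 with a base mean of at least 100). The BMP antagonist gene Grem1 (-1.65) and the BMP target genes Id3 (-1.39) and Id1 (-1.01) were lower in Tet1kd cells, and the ligand gene Bmp7 (1.12) and the transducer gene Smad1 (0.67) higher. Of 17 tested retinoic acid genes 8 were lower and 4 higher (median -0.48); the receptor gene Rarg (-0.81) was lower and the partner receptor gene Rxra (0.74) higher. Only 7 of 27 Hox genes were past the minimum level, of which 4 were lower and 3 did not pass. Hox genes with means under 10 in both parental and Tet2kd cells could not reach that minimum, whatever their level in Tet1kd cells. The shared direction is thus in part set by the choice of genes. Hoxc13, on chromosome 15, was at 21.5, 18.2, 17.7 and 15.2 against 143, 124, 144 and 137, and Hoxb9 had a difference of -2.25.

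Lineage genes differed in both directions, as did genes in general, with 24.9% higher and 24.1% lower. Of 13 tested neural genes 5 were lower and 3 higher (median -0.14). Nes, a filament gene of neural progenitors, was lower (-2.08), whereas the oligodendrocyte factor genes Olig2 (1.18) and Olig1 (0.54) were higher. Of 21 tested trophectoderm genes 11 were lower and 7 higher (median -0.80). Cdx2, the trophectoderm master factor, was lower (-3.13), at low means of 5.11 in Tet1kd and 45.1 in Tet2kd cells. Plet1 (-0.92) was lower too, and Tead4 (0.67) and the keratin gene Krt7 (1.30) were higher. The uncertainty of keratin counts given above holds for Krt7 as well. Among the 10 tested trophectoderm genes with a base mean of at least 100 the median was -0.10. Primitive endoderm had 16 tested genes with a median of 0.28, 6 of them higher and 2 lower. Besides Cubn the basement membrane genes Col4a1 (1.23), Col4a2 (0.94) and Lama1 (0.70) were higher and the endocytic receptor gene Lrp2 (-1.11) lower. The lineage factor gene Gata4, at 72.6 ± 11.04 and 98.4 ± 13.2 (SD, n = 4 each), had a difference of -0.44 with an adjusted p of 0.0429 by limma, which rose to between 0.0572 and 0.128 without Tet1kd library b or d or Tet2kd library a, b or c.

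Mesenchymal factors and matrix genes were more often lower in Tet1kd cells, as were markers of fibroblasts. Of 17 tested mesenchymal genes 10 were lower and 1, Tgfbi, was higher (median -0.47). Zeb1, a repressor of epithelial genes, had means of 229 ± 23.1 and 529 ± 58.7, and the signal gene Tgfb2 of 26.0 ± 6.92 and 113 ± 6.27 (SD, n = 4 each). Zeb2 (-1.92), Snai1 (-1.65) and N-cadherin, Cdh2 (-1.77), were lower too. Of 30 tested matrix genes 13 were lower and 8 higher (median -0.29, or -0.15 with the means of 7 untested members). The tenascin gene Tnc was at 514, 605, 527 and 604 against 2675, 2575, 2805 and 2741, and the protease inhibitor gene Timp3 differed by -1.81.

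The feeder cells on which clones had been selected are fibroblasts. Of 27 tested fibroblast markers 18 were lower and 1, Mmp2, was higher in Tet1kd cells (median -0.50). Of 12 defining markers 9 were tested, of which 8 were lower and 0 higher. For the 12 the summed level ran from 6746 to 8018 in the Tet1kd, from 9801 to 11662 in the Tet2kd and from 9702 to 11176 in the parental libraries. Of these, Lum, Fap and Twist2 were near 0 in Tet1kd cells, at means of 0.41, 0.28 and 2.29 against 22.2, 6.72 and 31.9 in Tet2kd cells, while Col1a1 was at 1317 against 2293 and Vim at 4202 against 5449. Dcn, Acta2, Tagln, Lox, Mmp3, Vim and several collagen genes stand both in this list and in the imprinted, cytoskeletal, matrix or mesenchymal lists. The part of fibroblast RNA in those lists was not tested.

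Naive pluripotency genes, which mark the ground state of stem cells, had no main direction. Of 14 tested naive pluripotency genes 5 were lower and 3 higher (median -0.15), and 16 had means only. The share called was 57.1%, against 49.0% over all genes. Over all 30 members the median by the means was 0.0021. Dppa3, a factor that shields methylated DNA in the zygote, was at 197, 239, 167 and 183 in the Tet1kd and at 1071, 1079, 1038 and 1006 in the Tet2kd libraries, with a parental mean of 528. The difference was -2.42 (SE 0.10, adjusted p = 7.12e-09). The homeobox gene Gbx2 (-0.79) was lower, and the AKT coactivator gene Tcl1 (0.87) and the STAT3 target Socs3 (0.40) were higher. Among means, the Kruppel-like factor genes Klf4 and Klf2 stood at 16902 and 14215 in Tet1kd against 8563 and 9053 in Tet2kd cells, Nanog at 20599 against 15470, Esrrb at 31263 against 28528 and Fbxo15 at 3641 against 8487. Of 16 tested formative and primed epiblast genes 8 were lower and 3 higher (median -0.10). Zic2, a zinc finger factor of the epiblast, was at 345, 361, 336 and 352 against 1816, 1744, 1665 and 1852 (difference -2.34, SE 0.07, adjusted p = 2.76e-10). Zic5 (-1.75) and Fgf5 (-3.33), an epiblast ligand, were lower as well. Otx2, a driver of the step to the primed state, was at 679 ± 23.0 and 595 ± 46.8 (SD, n = 4 each; difference 0.19, SE 0.08, adjusted p = 0.0505), with parental cells at 236.

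Genes of the 2-cell-like state, a rare state of stem cells that resembles the totipotent embryo, were lower in Tet1kd cells in all 6 tested cases (median -2.24). Of 15 matched members 8 were below the minimum level, and the 2 tested at a base mean of at least 100 had a median of -1.43. Genes with means under 10 in both parental and Tet2kd cells could not pass the minimum, whatever their level in Tet1kd cells. The shared direction is thus in part set by the choice of genes. Calcoco2, an autophagy receptor gene, was at 190, 174, 201 and 193 against 767, 750, 781 and 631. Zscan4c and Zscan4d had means of 1.82 and 1.64 against 13.04 and 15.7, and their near-identical family makes the reads uncertain. Of 24 tested germline genes 7 were higher and 10 lower (median -0.06), and among the 15 with a base mean of at least 100 the median was 0.26 with 5 lower. The PIWI pathway gene Tdrd12 (-1.32) and Tex19.1 (-0.99) were lower and the germ cell factor genes Dazl (1.04) and Prdm1 (0.72) higher.

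Among genes of DNA methylation, the de novo methyltransferase genes Dnmt3a (-0.54) and Dnmt3b (-0.28) were lower and their cofactor gene Dnmt3l (0.57) higher in Tet1kd cells. Of 17 tested genes of base excision repair, which removes oxidized cytosine, and of cofactor supply 6 were higher and 3 lower (median 0.02). The glycosylase gene Neil3 was at 260, 225, 212 and 208 against 113, 89.9, 71.2 and 122, and Idh1, which makes the TET cosubstrate 2-oxoglutarate, differed by -0.39. Of 28 tested Polycomb genes 7 were higher and 9 lower (median 0.02). Ezh2, the methyltransferase of the complex PRC2, was at 4038, 3756, 3940 and 3653 against 7690, 7449, 7382 and 7678, and lies in the shifted stretch of chromosome 6. The accessory gene Aebp2 (-0.62) was lower and Phf19 (0.68) higher.

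Imprinted genes, which are expressed from the copy of 1 parent under control of DNA methylation, were more often lower. Of 35 tested members 16 were lower and 5 higher (median -0.14). Plagl1, a zinc finger growth regulator, was at 444, 659, 337 and 501 in the Tet1kd and at 3704, 3953, 2875 and 2867 in the Tet2kd libraries (difference -2.81, SE 0.17, adjusted p = 9.62e-08). Peg3 was at 899, 877, 851 and 837 against 3370, 3492, 3248 and 3292, and its neighbour Usp29 differed by -3.12. The growth factor gene Igf2 (-1.48), Impact (-1.03) and Mest (-0.87) were lower too. Grb10, a growth inhibitor, had means of 14409 in Tet1kd and 4782 in Tet2kd cells, and Peg10 of 4708 and 13919, with no test.

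Of 37 tested cell cycle genes 11 were higher and 11 lower (median -0.10). Lower in Tet1kd cells were the G1 cyclin genes Ccne1 (-0.99), Ccnd2 (-0.78) and Ccnd1 (-0.45) and the inhibitor gene Cdkn2a (-2.36), and higher were the mitotic genes Ccnb2 (0.53), Mki67 (0.49), Plk1 (0.47) and Aurka (0.46). The replication helicase gene Mcm2 had means of 5199 and 13024. Of 27 tested p53 targets 7 were higher and 12 lower (median -0.18). The nucleotide synthesis gene Rrm2b was at 957, 1045, 723 and 800 against 300, 281, 224 and 263. Perp (0.71) was higher and the glycolysis inhibitor gene Tigar (-0.67) lower.

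Genes of amino acid stress and the unfolded protein response were more often higher in Tet1kd cells, with 12 higher and 5 lower of 22 (median 0.28). Chac1, which degrades glutathione, was at 1430, 1477, 1400 and 1388 against 506, 507, 479 and 553, and Nupr1, a stress regulator, differed by 1.44. Of 31 tested glycolysis and hypoxia genes 16 were higher and 5 lower (median 0.18). The oxygen sensor gene Egln1 was at 1132, 1142, 1186 and 1189 against 563, 544, 541 and 571, and Vegfa (1.25), the vessel growth factor, and Ndrg1 (1.59) were higher. Of the 5 lower members, Hk2 (-1.39), which starts glycolysis, and Kdm3a (-1.61) lie in the shifted stretch of chromosome 6. In the list of cholesterol synthesis 8 of 23 were lower and 2 higher (median -0.15), with Cyp51, which acts on lanosterol, at -0.66.

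Of 30 tested splicing factor genes 16 were lower and 2 higher (median -0.24), but 8 were lower when only genes settled by the wider limit of the read recovery were kept. Nova1 (-1.65) and Srsf11 (-0.54) were among the lower members, and Esrp1 and Mbnl2 (0.72) were the higher ones. Of 23 tested interferon response genes 8 were lower and 4 higher (median -0.20). Oasl2 had means of 5.43 ± 2.81 and 60.3 ± 15.6 and the MHC class I gene H2-K1, whose family shares sequence, of 1159 ± 93.7 and 585 ± 35.1 (SD, n = 4 each). Of 62 tested ribosomal protein genes 48 did not pass the test, 9 were higher and 5 lower (median 0.03). With the deeper and shallower pairs as a term in the fit, 19 were higher and 12 lower. Rpl39l, a copy of Rpl39 known from testis, stood apart at 1029, 1215, 996 and 1025 against 247, 184, 157 and 260.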

How the data were processed

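RNA of 12 libraries in 3 groups of 4 (SOLiD, poly(A)-selected, per the labels' protocols) had been aligned with TopHat2 2.0.0, handled with SAMtools 0.1.18 and compared with DESeq (builds mm9 and NCBIM37), per the submitters' processing notes. The authors' deposited gene tables give, per the file headers, group means as signal (normalized counts), a ratio (fold), its log2 value and p-values for each knockdown against parental. Exon tables were not used here. The tables were joined by gene ID and the Tet2kd table scaled by 0.918, the median ratio of the parental means. Whole reads per library were recovered as the only set of 4 whole numbers, each within 60% of the mean (20% where several fitted; 1353 tested genes, whose errors lean small; wider for low reads or where none fitted), that gave the deposited mean and fold, for means up to 10000. Checked on parental values known from both tables, 21580 of 21581 answers were right. Libraries are lettered by size factor, since nothing ties them to numbered replicates. Genes were tested with limma 3.58.1 (R 4.3.3; eBayes with trend) on log2(normalized count + 0.5), where differences of low genes depend on the pseudocount and can lie above or below the fold of the means, with Benjamini-Hochberg adjustment over 14208 genes. On simulated data of these 14208 genes, 92 of 100 genes changed 2-fold and 78 of 100 changed 1.5-fold were called, and 0 unchanged genes. No other genes were changed there, whereas 49.0% were called in the data. How often unchanged genes were called in the data was not tested. Named were the TET genes, the 12 largest and 12 smallest differences by the rule in the text, in each list the 2 called members with the smallest adjusted p in each direction and a mean of at least 50, the largest and smallest differences among genes with means only, and Y-linked genes; a few genes the rule names are not reported here, and other list members were named for their role after their values were seen. The members and lists were chosen with earlier results of these data known. Symbols and chromosomes came from the reference tables; 32155 of 36521 IDs had a symbol, and 570 tested features merge several genes. The sources used here do not give the strand setting of the counting. Promoter sequences are from RefSeq.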

Additional observations from a re-analysis of the deposited data

Results flagged for a closer look

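Tgfbi was flagged because 1 parental library stood apart from the other 3: library c had 153 normalized counts and the others 95.9 to 105. The Tet1kd libraries, at 577 to 643, lay above all parental libraries. Among 88 groups of 4 libraries looked at in 30 genes this was the only 1 flagged, and chance flags about 1 in 20.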

How the results depend on the processing

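No paired analysis was possible because the recovered libraries carry no replicate numbers. Leaving out 1 library at a time gave 6318 to 6662 differing genes, 3242 to 3414 higher, 3076 to 3263 lower, 586 to 615 at least 2-fold higher, 823 to 842 at least 2-fold lower, 388 to 407 list members (408 with all libraries), all 24 of the largest differences, and 0.70 to 0.83 for Tet3. With the deeper and shallower pairs, inferred from the size factors and named by no label, as a term 8506 genes differed. Deviations of Tet1kd and Tet2kd libraries from their group means correlated at 0.44 to 0.59 within these pairs and at -0.56 to -0.43 across them. Deviations from a mean cancel out within a group, so negative values across pairs follow from positive ones within them and are no separate result. With all 12 libraries 7235 differed, with a pseudocount of 5 7003, centred on the median 6954, with voom 7119, with genes settled by the wider limit alone 6202, without a level filter 7500 and with a base mean of at least 100 5497. Among counts over all genes, those of 2-fold genes moved by over 1.5 times: 1075 higher and 1330 lower without a filter, and 210 and 318 at a base mean of at least 100, where fewer genes are tested. At that minimum 6 of the 24 largest differences could be tested and the median of chromosome 6 was -0.17 (-0.20 with all genes). Among 422 called list members and named genes none changed sign in any setting run; 38 lost their call in at least 1 setting that left out a library. Uty, with no call, ranged from -0.57 without Tet2kd library a to 0.087 without Tet2kd library b. Ddx3y passed the test in 4 settings and Otx2 in 5. Over all settings 45 list counts moved by over 1.5 times and 1145 did not. At a base mean of at least 100, 4 streak genes were lower in place of 11, 5 trophectoderm genes in place of 11, 5 germline genes in place of 10, 5 retinoic acid genes in place of 8 (and 2 higher in place of 4), 2 genes of the 2-cell-like state in place of 6 and 4 mesenchymal genes in place of 10. With genes settled by the wider limit alone, where fewer genes are tested, 10 of the glycolysis genes were higher in place of 16 (and 2 lower in place of 5), 7 immediate-early genes in place of 11, 4 cell cycle genes in place of 11, 4 p53 targets in place of 7, 3 Wnt genes in place of 7, 1 naive pluripotency gene in place of 3 and 1 cholesterol gene in place of 2; 8 splicing genes were lower in place of 16 and 4 Polycomb genes in place of 9. With the pairs as a term, ribosomal genes rose to 19 higher and 12 lower from 9 and 5, Polycomb genes to 11 higher from 7, splicing genes to 4 higher from 2, naive pluripotency genes to 8 lower from 5 and base excision genes to 5 lower from 3. Outside the chromosome 6 stretch, a setting added after the data were seen, 2 Hox genes were lower in place of 4, 3 glycolysis genes in place of 5 and 3 amino acid response genes in place of 5. The other moved counts were of at most 2 genes or of lists with fewer than 8 tested members. Depth limits genes near the minimum of 10, and genes above 10000 have no test.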
